A study of Mus musculus with 12 samples.

Results

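Toll-like receptors and the adaptors of the MyD88 pathway were followed as 8 genes, chosen by name: the receptors Tlr2 and Tlr4, the adaptors Myd88 and Ticam1, the kinases Irak1, Irak2 and Irak4, and the ubiquitin ligase Traf6. All 8 were found among the 15002 genes of the deposited tables, and all 8 were abundant enough to enter the test, which covered 11900 genes. The cells were IEC4.1, an established mouse line labelled intestinal epithelial and wild type. They were transfected at 120 nM with a non-targeting scrambled siRNA (siR_Ctrl) or with 3 pooled siRNAs that target Nostrill, a long non-coding RNA (siR_Nostrill), and each arm was grown with or without interferon gamma (IFN-γ) at 1 ng/ml. The groups without IFN-γ are called siR_Ctrl and siR_Nostrill and those with it carry + IFN-γ, which makes 4 groups of 3 libraries and 12 in all. Per the study's methods IFN-γ was given for 4 h, whereas the labels give a single time of 24 h for every library, which is also the transfection time in the methods. Every group was transfected, so no untransfected cells enter any comparison, and all values come from a single cell line. Nostrill itself was not analysed here, so its level was not used to check the labels.

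Toll-like receptors sit on the cell surface or in endosomes and recognise conserved parts of microbes. TLR2 binds bacterial lipoproteins together with TLR1 or TLR6, and TLR4 binds lipopolysaccharide together with MD-2 (gene Ly96) and CD14. Most of them signal through the adaptor MyD88, which gathers IRAK4, IRAK1 and IRAK2 into a complex that hands the signal to the ubiquitin ligase TRAF6 and on to NF-κB, while TRIF (gene Ticam1) serves TLR3 and one branch of TLR4. In the intestinal epithelium these receptors meet a dense microbial flora and are kept at low level. IFN-γ acts on a different receptor, and the gamma-activated site (GAS) is a short element found in promoters of genes that respond to it.

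The libraries held 17824306 to 19093204 reads on genes. All values are from bulk RNA, in which fewer cells of a type and less RNA per cell cannot be told apart. The labelled cell type was poorly borne out by its markers. Of 10 intestinal epithelial markers 6 were in the tables, and Krt8, Krt18, Krt20 and Vil1 stayed at or below 0.28 FPKM (fragments scaled to transcript length and library depth) in every library, while Krt19 lay between 0.91 and 2.76 FPKM and Tjp1 between 4.8 and 16.01 FPKM. All 4 fibroblast markers were present, and their summed level ran from 241.83 to 451.36 FPKM. The leukocyte markers in the tables (4 of 6) summed to 1.35 to 2.58 FPKM, with Ptprc at or below 0.01, and the pair of endothelial markers summed to at most 0.18. The fibroblast sums were 292.45 to 451.36 FPKM in siR_Ctrl, 241.83 to 386.07 in siR_Ctrl + IFN-γ, 270.39 to 386.8 in siR_Nostrill and 279.71 to 328.3 in siR_Nostrill + IFN-γ, so the ranges of the sums overlapped between all groups. Single markers did separate in siR_Nostrill cells, with Col3a1 at 58.31 to 89.22 FPKM without and 48.79 to 55.98 with IFN-γ. On the deposited TPM (transcript shares scaled to a fixed total per library) Col3a1 overlapped, at 77.47 to 130.97 and 69.86 to 86.51. The leukocyte marker Csf1r stood at 0.31 to 0.4 FPKM without and 0.11 to 0.2 with IFN-γ. Dcn stood at 13.18 to 17.18 FPKM without and 18.71 to 20.18 with it. Dcn also separated between the siRNA arms with IFN-γ, as siR_Ctrl + IFN-γ lay at 13.82 to 17.11 FPKM. Col1a1, Col3a1 and Pdgfra overlapped between those groups. The part of these markers in the results was not tested. Within groups, libraries differed by gene length. A library's deviation from its group mean correlated across genes with gene length at a Spearman rho between -0.766 and 0.794, the latter in siR_Ctrl replicate 1, and genes are not independent replicates. The log2 changes between groups followed length too, at a rho across genes of -0.436 and 0.491 with IFN-γ in siR_Ctrl and siR_Nostrill cells, -0.667 and 0.272 between the siRNA arms without and with IFN-γ, and 0.664 for the interaction. Values with a length trend removed from each library are therefore given beside several of the changes. The trend was fitted to each library's deviation from the mean of all 12 libraries, not of its group. Its removal therefore also takes out any difference between groups that follows length, including one due to treatment. How much of the trend belongs to treatment was not tested.

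The promoters of the 3 members that rose with IFN-γ, Myd88, Tlr2 and Irak2, are shown because the later results turn on these genes. Sequences are from a table of RefSeq promoters on GRCm38.p6, in which 7 of the 8 members were found, without Tlr4. Each runs 5′ to 3′ on the gene's strand from 250 bases before to 50 bases after a start site. Both strands were searched for GAS, written TTCNNNGAA, for the core of the interferon-stimulated response element, written GAAANNGAA, and for the NF-κB site by its usual degenerate consensus, and matches are in capitals. Among 32841 promoters of the same length, 8.3% held the GAS letters, 8.56% the response element core and 4.51% the NF-κB letters. Myd88 (chr9:119339969-119340268, minus strand) held 1 GAS match at bases -46 to -38 and 1 response element core at -40 to -32, which overlap. Tlr2 (chr3:83841559-83841858, minus strand) held NF-κB letters in an overlapping group at bases -173 to -163 and again at -8 to 2. Its tabulated start site lies 216 bases inside the outer end of the annotated gene. Irak2 (chr6:113638217-113638516, plus strand) held none of these letters in this window, and neither did Irak1, Irak4, Ticam1 or Traf6. These are letter matches and not measured sites.
Myd88: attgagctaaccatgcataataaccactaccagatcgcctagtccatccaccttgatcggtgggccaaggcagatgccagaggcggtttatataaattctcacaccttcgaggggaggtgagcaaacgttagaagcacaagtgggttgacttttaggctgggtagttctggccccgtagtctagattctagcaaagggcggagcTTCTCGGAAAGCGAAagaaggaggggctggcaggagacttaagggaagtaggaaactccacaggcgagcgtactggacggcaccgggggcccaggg
Tlr2: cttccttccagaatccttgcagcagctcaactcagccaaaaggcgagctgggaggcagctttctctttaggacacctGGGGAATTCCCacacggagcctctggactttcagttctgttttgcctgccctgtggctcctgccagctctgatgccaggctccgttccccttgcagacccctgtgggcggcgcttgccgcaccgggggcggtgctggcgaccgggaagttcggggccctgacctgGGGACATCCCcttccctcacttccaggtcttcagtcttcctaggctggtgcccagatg
Irak2: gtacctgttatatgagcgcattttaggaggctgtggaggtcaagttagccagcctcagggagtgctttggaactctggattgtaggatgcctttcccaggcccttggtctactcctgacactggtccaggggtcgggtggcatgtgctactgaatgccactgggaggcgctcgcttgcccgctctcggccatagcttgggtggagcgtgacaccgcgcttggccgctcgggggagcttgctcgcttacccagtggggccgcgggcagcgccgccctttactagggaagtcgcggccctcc

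The order of the levels was read on the FPKM scale, which is per length of transcript. In siR_Ctrl cells Irak1 was the most abundant member at 22.2 ± 3.57 FPKM (SD, n = 3), followed by Myd88 at 16.6 ± 0.458, and their ranges were separate. Irak2 followed at 7.74 ± 0.276 FPKM. Ticam1 at 6.45 ± 0.499 and Tlr2 at 5.15 ± 0.975 had overlapping ranges, although Ticam1 was above Tlr2 in 3 of 3 libraries. Irak4 (3.74 ± 0.42) and Traf6 (3.74 ± 0.764) could not be ordered, with Irak4 higher in 1 of 3 libraries. Tlr4, the lipopolysaccharide receptor, was lowest at 1.23 ± 0.384 FPKM and lay below every other member in all 12 libraries. With IFN-γ the order changed at the top in both siRNA arms: Myd88 reached 41.3 ± 1.63 FPKM in siR_Ctrl + IFN-γ and passed Irak1 at 20.7 ± 3.72, and Tlr2 passed Ticam1. The 8 panels of FPKM by library show these levels.

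**Figure D1:**
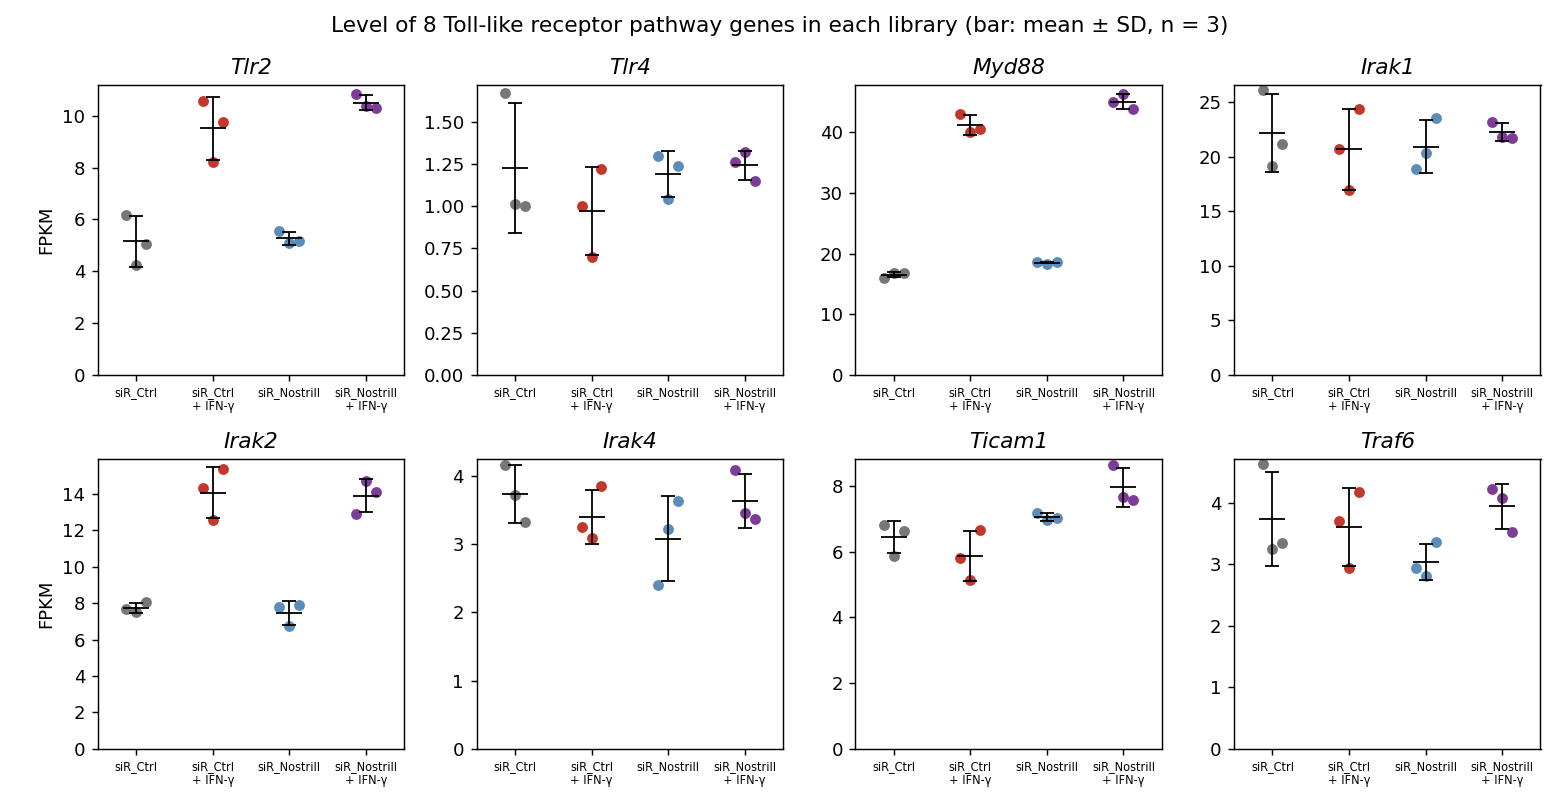
FPKM of the 8 members (y axis, from 0, a separate scale per gene) in the 12 libraries of the 4 groups (x axis), with each library as a point and the mean ± SD (n = 3) as a bar. Tlr2, Myd88 and Irak2 are higher in all IFN-γ libraries than in all libraries without IFN-γ, and the points of Tlr4, Irak1 and Irak4 overlap between groups.

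The first comparison asked what IFN-γ did to the pathway genes in cells with the control siRNA. A gene was called where its adjusted p in edgeR's quasi-likelihood test was below 0.05, and log2 fold changes are from that fit. Myd88, Tlr2 and Irak2 rose, by 2.61-fold, 1.93-fold and 1.9-fold, and Tlr4, Irak1, Irak4, Ticam1 and Traf6 did not pass the test. Thus 3 of 8 members were called, all higher, where 5.45% of all 11900 genes were called and 4.71% were called higher. DESeq2 also called 3 of 8, beside 6.47% of the genes to which it gave an adjusted p. The ranges of both groups did not overlap for 3 of 8 members, against 18.3% of all genes. Over the 8 members the median log2 fold change was 0.002, beside -0.009 over all genes, and with the length trend removed it was 0.089. Of the 8 changes 4 were above 0.

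Myd88, the adaptor shared by most Toll-like receptors and the IL-1 receptor family, stood at 16.02, 16.85 and 16.77 FPKM in siR_Ctrl replicates 1 to 3 and at 43.12, 40.06 and 40.63 in siR_Ctrl + IFN-γ. The groups were far apart and did not overlap. Its log2 fold change was 1.39 (SE 0.081, 95% interval 1.21 to 1.56, edgeR adjusted p = 3.354e-07), from 490 to 527 reads without and 1293 to 1359 reads with IFN-γ. It lies on chromosome 9, 119335934 to 119340018 (GRCm38.p6), overlaps no other RefSeq gene and has 1 transcript in the tables.

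Tlr2, the receptor of lipoproteins (chromosome 3, 83836272 to 83841824), stood at 6.18, 4.24 and 5.04 FPKM in siR_Ctrl and at 10.58, 8.21 and 9.75 in siR_Ctrl + IFN-γ. The groups did not overlap, and replicate 2 was the lowest in both. The log2 fold change was 0.95 (SE 0.114, 95% interval 0.70 to 1.20, edgeR adjusted p = 2.148e-04). On the deposited TPM (transcript shares scaled to a fixed total per library) with limma, an alternative chosen after seeing the data, the difference was 0.73 with an adjusted p of 0.0999 and was not called. On that scale the median log2 change of all genes was -0.145.

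Irak2, a kinase of the MyD88 complex that sustains the signal (chromosome 6, 113638467 to 113695026), stood at 7.67, 7.5 and 8.04 FPKM in siR_Ctrl and at 14.35, 12.55 and 15.36 in siR_Ctrl + IFN-γ. Here too every library with IFN-γ was above every library without it. The log2 fold change was 0.93 (SE 0.087, 95% interval 0.73 to 1.12, edgeR adjusted p = 2.681e-05).

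The other kinases of the same complex gave no call. Irak4, the first kinase to join MyD88 (chromosome 15, 94543613 to 94568317), had 4.17, 3.72 and 3.33 FPKM without and 3.25, 3.1 and 3.85 with IFN-γ, and the groups overlapped. Irak1 (chromosome X, 74013914 to 74023921) had 26.11, 19.17 and 21.17 FPKM without and 20.7, 16.96 and 24.4 with IFN-γ, again overlapping. The 95% intervals of the log2 fold change were -0.28 to 0.27 for Irak4 and -0.26 to 0.22 for Irak1, which are the sizes these libraries leave possible. Within the IRAK family, then, Irak2 was called and Irak1 and Irak4 were not, and the difference between the kinases was not itself tested. Irak1 contains the microRNA genes Mir5132 and Mir718 in the annotation and its deposited read counts held fractions in every library.

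Traf6, the ubiquitin ligase downstream of the kinases (chromosome 2, 101678420 to 101701668), had 4.62, 3.25 and 3.35 FPKM in siR_Ctrl and 3.7, 2.93 and 4.18 in siR_Ctrl + IFN-γ, with overlapping groups. Ticam1, the adaptor of TLR3 and of the second branch of TLR4 (chromosome 17, 56269462 to 56276767), had 6.82, 5.88 and 6.64 FPKM without and 5.79, 5.13 and 6.65 with IFN-γ. Neither gene passed the test, with 95% intervals of the log2 fold change of -0.28 to 0.30 for Traf6 and -0.27 to 0.13 for Ticam1. Tlr4 (chromosome 4, 66827551 to 66846581) had 1.67, 1.01 and 1.0 FPKM without and 1.0, 0.7 and 1.22 with IFN-γ. Its high value lay in siR_Ctrl replicate 1, with 231 reads against 142 and 137 in the other libraries of that group. Without that library the log2 fold change was -0.01 in place of -0.26. Over all fits that left out a library it ran from -0.42 to -0.01. Tlr4 and Traf6 have the longest transcripts of the 8, at 7675 and 5862 bases of effective length. The library whose deviations follow length most closely is siR_Ctrl replicate 1, and whether length caused these values was not tested. With the length trend removed from each library the Tlr4 change was -0.10 (adjusted p = 0.697) and the Traf6 change 0.13 (adjusted p = 0.331).

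The second comparison asked the same of cells in which Nostrill was targeted. Myd88, Tlr2 and Irak2 rose again, by 2.4-fold, 1.96-fold and 1.87-fold. This made 3 of 8 members called, all higher, where 6.78% of all genes were called and 5.24% were called higher. DESeq2 also called 3 of 8, beside 10.5% of the genes to which it gave an adjusted p. The ranges did not overlap for 5 of 8 members, the 3 genes above with Ticam1 and Traf6, against 34.9% of all genes. The median log2 fold change of the members was 0.26, beside -0.001 over all genes, and with the length trend removed it was 0.16. All 8 changes were above 0, as were 5938 of 11900 over all genes, and with the length trend removed 6 of 8 were.

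Myd88 went from 18.58, 18.37 and 18.62 FPKM in siR_Nostrill to 44.98, 46.33 and 43.92 in siR_Nostrill + IFN-γ, a log2 fold change of 1.26 (SE 0.08, edgeR adjusted p = 7.622e-07). Tlr2 went from 5.55, 5.08 and 5.18 FPKM to 10.86, 10.37 and 10.31, a log2 fold change of 0.97 (SE 0.114, edgeR adjusted p = 1.811e-04). Irak2 went from 7.79, 6.72 and 7.88 FPKM to 12.91, 14.73 and 14.11, a log2 fold change of 0.90 (SE 0.088, edgeR adjusted p = 3.551e-05). For all 3 genes the libraries with IFN-γ were close together and well above the others.

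Traf6 had 2.93, 2.8 and 3.36 FPKM in siR_Nostrill and 4.22, 4.08 and 3.53 in siR_Nostrill + IFN-γ, with groups that just failed to overlap. Its log2 fold change of 0.37 (SE 0.133) had an adjusted p of 0.131 in edgeR and was not called. When only these 6 libraries were fitted Traf6 was called (edgeR adjusted p = 0.033), beside 1997 of 11714 genes. With the length trend removed the change fell to 0.16 (edgeR adjusted p = 0.155). Ticam1 went from 7.18, 6.95 and 7.02 to 8.65, 7.65 and 7.58 FPKM, a log2 change of 0.15 that did not pass (adjusted p = 0.329). Tlr4 (1.3, 1.04 and 1.24 against 1.26, 1.32 and 1.15 FPKM), Irak1 (18.87, 20.34 and 23.55 against 23.18, 21.83 and 21.71) and Irak4 (2.4, 3.22 and 3.63 against 4.09, 3.46 and 3.37) overlapped between the groups. The 95% intervals of their log2 changes were -0.40 to 0.47, -0.18 to 0.31 and -0.23 to 0.33. The Tlr4 change of 0.039 turned to -0.24 with the length trend removed.

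**Figure D2:**
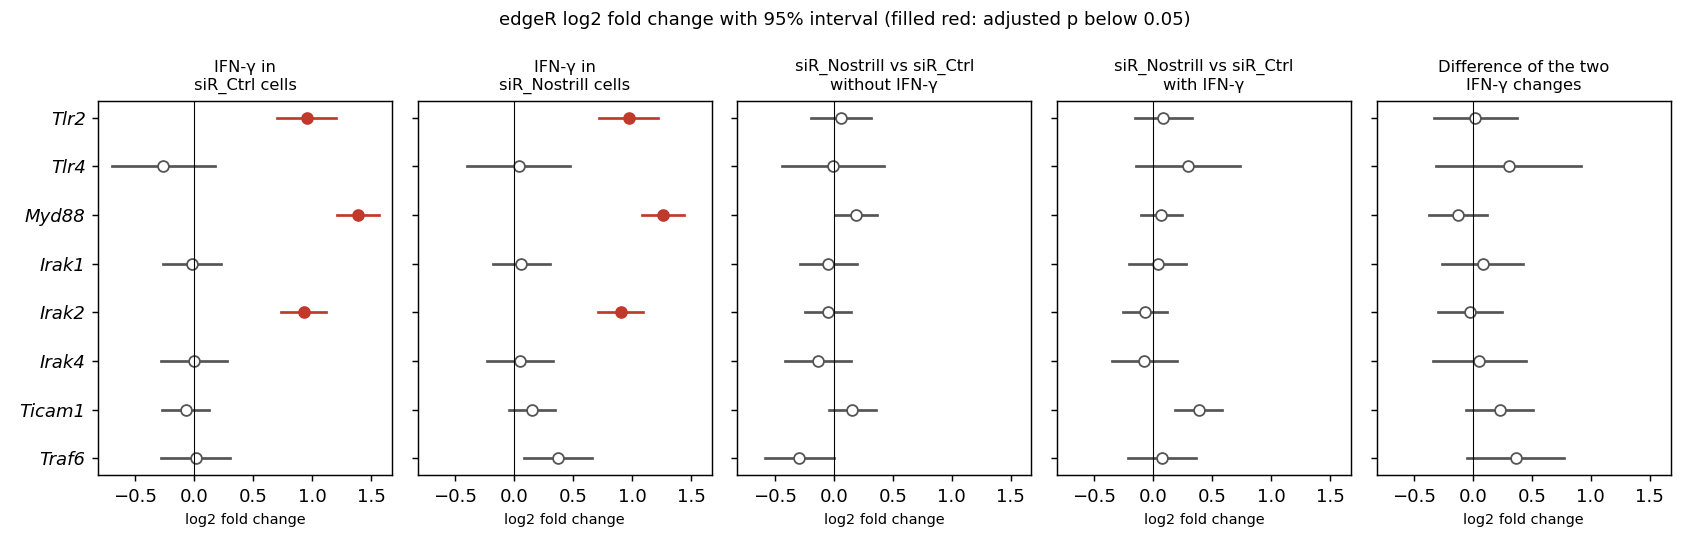
Log2 fold change from edgeR (x axis) of the 8 members (y axis) in the 5 comparisons, with 95% intervals; filled red points passed an adjusted p of 0.05. Myd88, Tlr2 and Irak2 pass in both IFN-γ panels, with log2 changes of 0.90 to 1.39, and no member passes in the other panels.

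The siRNA comparisons reuse the groups of the IFN-γ comparisons, so their values are not independent of those above. The third comparison set siR_Nostrill against siR_Ctrl without IFN-γ, and asked whether targeting Nostrill moved the resting level of these genes. No member passed edgeR's test, where 0.218% of all genes did. At an unadjusted p below 0.05 stood 1 of 8 members, beside 13.8% of all genes, and DESeq2 called 0 of 8, beside 2.35% of the genes to which it gave an adjusted p. Myd88 was the member nearest to a call. Its siR_Nostrill libraries (18.37 to 18.62 FPKM) all lay above the siR_Ctrl libraries (16.02 to 16.85), and its log2 change was 0.19 (95% interval 0.015 to 0.37, edgeR adjusted p = 0.347). On TPM the ranges overlapped (23.41 to 27.34 against 22.92 to 28.06). The change was 0.007 on log2(TPM + 1), where the median of all genes was -0.148, and 0.077 with the length trend removed. Ticam1 was the other member whose ranges did not overlap (6.95 to 7.18 against 5.88 to 6.82 FPKM), with a log2 change of 0.16 and an adjusted p of 0.397. These 2 of 8 stand beside 17.1% of all genes whose ranges did not overlap. For Traf6 the change was -0.29 (95% interval -0.58 to 0.001, adjusted p = 0.359), and with the length trend removed it was -0.02. The intervals of Tlr2 (-0.19 to 0.32), Irak1 (-0.29 to 0.20), Irak2 (-0.24 to 0.14) and Irak4 (-0.41 to 0.15) leave changes of that size possible in either direction, and that of Tlr4 was the widest at -0.44 to 0.43. The Tlr4 change without the length trend became 0.36 (95% interval 0.095 to 0.63), which did not pass over all genes (adjusted p = 0.128).

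The fourth comparison set the siRNA arms against each other in the presence of IFN-γ. By edgeR no member was called, where 0.429% of all genes were. At an unadjusted p below 0.05 stood 1 of 8 members, beside 14.5% of all genes, and DESeq2 called 1 of 8, beside 5.65% of the genes to which it gave an adjusted p. That member was Ticam1, the TRIF adaptor. It had 8.65, 7.65 and 7.58 FPKM in siR_Nostrill + IFN-γ and 5.79, 5.13 and 6.65 in siR_Ctrl + IFN-γ, so all 3 libraries of the Nostrill arm were above all 3 of the control arm. Of the fibroblast markers, Dcn had separate ranges in the same direction in this comparison, whereas those of Col1a1, Col3a1 and Pdgfra overlapped. Their part was not tested. The log2 change of Ticam1 was 0.39 or 1.31-fold (SE 0.091, 95% interval 0.19 to 0.58, edgeR adjusted p = 0.0843). The adjusted p was 0.00959 with DESeq2 and 0.0116 with the length trend removed, and it ran from 0.00959 to 0.277 over the 12 alternatives other than leaving out a library. Leaving out each library gave 0.0686 to 0.295 and no call in 12 fits. The call therefore depends on the test and on the processing.

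Myd88 also had ranges that did not overlap, at 43.92 to 46.33 FPKM in siR_Nostrill + IFN-γ and 40.06 to 43.12 in siR_Ctrl + IFN-γ. On TPM the ranges overlapped (62.89 to 70.16 against 50.4 to 63.98). Its log2 change of 0.07 (95% interval -0.10 to 0.24, edgeR adjusted p = 0.750) was small. Non-overlap in 2 of 8 members stands beside 22.9% of all genes. For Tlr2 the interval was -0.16 to 0.33, for Irak2 -0.26 to 0.12, for Irak1 -0.21 to 0.28, for Irak4 -0.35 to 0.20, for Traf6 -0.22 to 0.36 and for Tlr4 -0.14 to 0.73.

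The last comparison tested whether the change with IFN-γ itself differed between siR_Nostrill and siR_Ctrl cells, as the interaction of both factors. No member passed in edgeR, 0 of 8 had an unadjusted p below 0.05 and DESeq2 called 0; of all genes 0.00% were called, with 10.7% at an unadjusted p below 0.05. For the 3 genes that rose with IFN-γ the difference of the log2 changes was -0.12 for Myd88 (95% interval -0.37 to 0.12), 0.02 for Tlr2 (-0.33 to 0.37) and -0.02 for Irak2 (-0.29 to 0.25). With the length trend removed the value for Myd88 turned to 0.032 (95% interval -0.16 to 0.22). Traf6 had the largest estimate at 0.36 (-0.05 to 0.77) and Tlr4 the next at 0.30, with the widest interval of the 8 (-0.32 to 0.92). Ticam1 followed at 0.23 (-0.06 to 0.51). With the length trend removed these became 0.03 for Traf6, -0.14 for Tlr4 and 0.22 for Ticam1. Irak1 and Irak4 gave 0.08 and 0.06, and the former turned to -0.046 in that setting.

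The rest of the pathway was read from a list of 57 genes of Toll-like receptors, their partners, kinases, ubiquitin enzymes, inhibitors and the IL-1 receptor family that shares MyD88. Of these 49 were in the tables and 39 were tested. The remaining 10 had too few reads, among them Tlr1 (0 to 6.2 expected reads per library), Tlr5 (0 to 7), Irak3 (0 to 4), Unc93b1 (1 to 10), Il18r1 (0 to 3) and Il1r2 (0 to 2). Where a library had 0 reads, up to 3 reads are still allowed by counting error. Tlr8, Tlr9, Tlr11, Tlr12, Cd180, Ly86, Ticam2 and Pik3ap1 were not analysed here.

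IFN-γ raised 6 of 39 listed genes in siR_Ctrl cells and lowered none, where 5.45% of all genes were called. At an unadjusted p below 0.05 stood 9 of 39, beside 14.6% of all genes. The median log2 fold change of the list was 0.09, beside -0.009 over all genes. In siR_Nostrill cells 8 of 39 were called, 7 higher and 1 lower, with a list median of 0.14, where 6.78% of all genes were called. At an unadjusted p below 0.05 stood 17 of 39, beside 21.9% of all genes. Without and with IFN-γ, and for the interaction, edgeR called 0 of 39 between the siRNA arms. At an unadjusted p below 0.05 stood 12, 7 and 4 of 39, beside 13.8%, 14.5% and 10.7% of all genes. DESeq2 called 0, 1 and 0 of the listed genes, beside 2.35%, 5.65% and 0.00% of the genes to which it gave an adjusted p. With the length trend removed Tab2 was called lower in the Nostrill arm without IFN-γ, where 3.45% of all genes were called in that setting. With IFN-γ Tlr3 was then called higher and Hsp90b1, Ripk1, Ikbkb, Traf3, Birc3 and Tnip1 lower, where 12.9% of all genes were. Calls with the length trend removed stand beside 11.1% of all genes for IFN-γ in siR_Ctrl cells and 19.1% in siR_Nostrill cells.

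Among the receptors Tlr3, the endosomal receptor of double-stranded RNA that signals through TRIF, had the largest log2 change of the 39 tested genes in both arms. It stood at 0.84, 0.58 and 0.43 FPKM in siR_Ctrl, 3.14, 2.56 and 3.79 in siR_Ctrl + IFN-γ, 0.72, 0.59 and 0.96 in siR_Nostrill and 4.75, 4.85 and 4.65 in siR_Nostrill + IFN-γ. This was a rise of 5.46-fold in control cells (log2 SE 0.209, edgeR adjusted p = 1.065e-05) and 6.2-fold in siR_Nostrill cells (adjusted p = 4.44e-06). Between the siRNA arms with IFN-γ its log2 difference of 0.52 did not pass in edgeR (adjusted p = 0.199). With the length trend removed it was 0.48 and passed (adjusted p = 0.0199). Tlr6, the partner of TLR2, rose 2.39-fold and 2.95-fold from a low level, 0.09 to 0.24 FPKM without and 0.33 to 0.54 FPKM with IFN-γ. Tlr7 was tested and not called in either arm. Of the proteins that serve TLR4, Cd14 was well expressed (14.34 to 19.27 FPKM in all libraries) and Ly96 lay between 4.7 and 10.11 FPKM. Neither was called with IFN-γ (Cd14 adjusted p = 0.881 and 0.662, Ly96 0.290 and 0.226). Ly96 was called higher in siR_Nostrill cells once the length trend was removed (1.67-fold, adjusted p = 0.043). In that setting Hsp90b1 and Cnpy3, chaperones of Toll-like receptors, were called lower there (0.81-fold with adjusted p = 0.00871 and 0.882-fold with adjusted p = 0.045). The adaptor Tirap, which brings MyD88 to TLR2 and TLR4, ranged from 1.73 to 5.08 FPKM and was not called either (adjusted p = 0.772 and 0.250).

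Below the adaptors, Ripk1, a kinase that binds TRIF, and Map3k8, a kinase of the ERK branch, rose in both arms. Ripk1 went from 12.65 to 15.78 FPKM up to 21.97 to 28.62 in control cells, a rise of 1.94-fold (adjusted p = 2.408e-05), and rose 1.94-fold in siR_Nostrill cells as well (adjusted p = 2.707e-05). Map3k8 rose 2.4-fold and 1.88-fold. The TAK1 complex and the IκB kinases were not called by edgeR: the log2 changes of Map3k7, Tab1, Tab2, Tab3, Chuk, Ikbkb and Ikbkg ran from -0.31 for Tab3 to 0.08 for Ikbkb in control cells and from -0.34 for Tab1 to 0.45 for Tab3 in siR_Nostrill cells. In siR_Nostrill cells Tab1 was called lower (adjusted p = 0.0339) and Tab2 higher (adjusted p = 0.0247) after removal of the length trend. Traf3, a ubiquitin ligase of the TRIF branch, was then called lower as well (0.832-fold, adjusted p = 0.0141). The ubiquitin ligase Peli1, which acts on IRAK kinases, was called in siR_Nostrill cells (1.58-fold, adjusted p = 0.0196) and not in control cells (1.13-fold, adjusted p = 0.661). The interaction for Peli1 did not pass (adjusted p = 0.430).

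Of 6 inhibitors tested, Sigirr, a receptor that dampens Toll-like and IL-1 receptor signals, was the single call. It had 1.43, 1.71 and 1.51 FPKM in siR_Ctrl and 1.98, 2.52 and 2.02 in siR_Ctrl + IFN-γ, but 2.29, 2.5 and 2.45 in siR_Nostrill and 1.37, 1.16 and 1.59 in siR_Nostrill + IFN-γ. In siR_Nostrill cells it fell to 0.619-fold (edgeR adjusted p = 0.0278), and in control cells it was 1.28-fold and not called (adjusted p = 0.351). The interaction of -1.05 (SE 0.234) had an unadjusted p below 0.05 but did not pass over all genes (adjusted p = 0.430). Tollip stayed between 9.39 and 13 FPKM in all libraries and was not called. Tnfaip3 (A20), a target of NF-κB, was not called by edgeR in either arm (1.2-fold with adjusted p = 0.508 and 1.43-fold with adjusted p = 0.0813). After removal of the length trend Tnfaip3 passed in both arms (adjusted p = 0.0103 and 0.00323), and its partner Tnip1 was called higher in control cells (1.23-fold, adjusted p = 0.0189).

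In the IL-1 receptor family, Il18rap and Il1rl1 rose. Il18rap, the signalling chain of the IL-18 receptor, went from 15.64 to 16.9 FPKM up to 31.46 to 34.9 in control cells (2.12-fold, adjusted p = 3.668e-06) and from 13.78 to 14.47 up to 32.71 to 37.77 in siR_Nostrill cells (2.49-fold, adjusted p = 7.232e-07). Il18r1, the chain that binds the ligand, held at most 3 reads in any library. Il1rl1, the receptor of IL-33, rose 1.71-fold (adjusted p = 0.0169) and 2.07-fold (adjusted p = 0.00233). Il1r1 (5.57 to 11.69 FPKM) and Il1rap (2.89 to 6.18 FPKM), the chains of the IL-1 receptor, were not called in either arm.

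**Figure D3:**
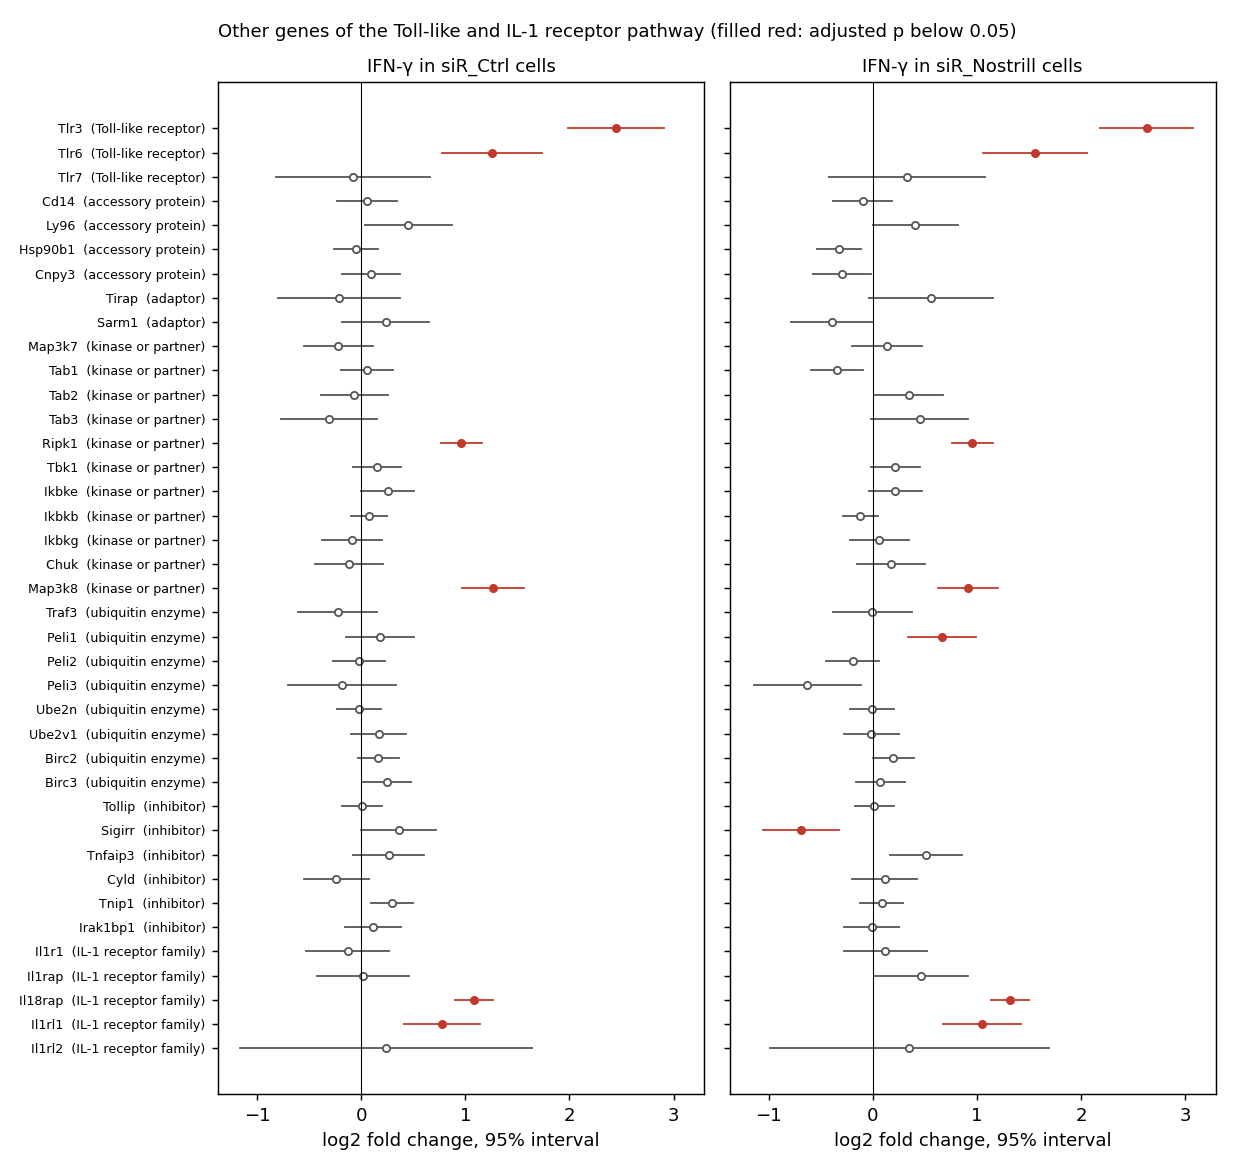
Log2 fold change with IFN-γ (x axis, with 95% intervals, from edgeR) of the 39 tested genes of the wider list (y axis, grouped by role) in siR_Ctrl cells (left) and siR_Nostrill cells (right). Filled red points passed an adjusted p of 0.05, which 6 genes did on the left and 8 on the right, with Tlr3 farthest from 0 in both panels.

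The members were also compared with each other and with all other genes by the Pearson correlation of log2 CPM (counts scaled to library depth) over the 12 libraries. These are descriptions without a test, since the 12 points fall into 4 groups and share depth and length effects. Myd88 tracked Tlr2 at r = 0.963 and Irak2 at r = 0.971, and Tlr2 tracked Irak2 at r = 0.952. All 3 of these genes separate by IFN-γ. Irak1 tracked Traf6 at r = 0.712, and this became -0.33 with the length trend removed. Tlr4 tracked Irak1 at 0.666 and then -0.10. Other pairs became closer or more opposed. Traf6 went from 0.399 to 0.742 with Myd88, from 0.505 to 0.784 with Irak2 and from 0.551 to 0.688 with Tlr2. Tlr4 went from -0.189 to -0.766 with Irak4. The genes most like Myd88 were Ly6c1 (r = 0.998), Rnf114 (0.997) and Cxcl10 (0.997), the last a chemokine induced by interferon. Those most like Tlr2 were Gm12250 (0.988), Osmr, the oncostatin M receptor (0.987), and Xdh (0.987). Among those most like Irak2 were Casp12 (0.99) and Gbp4, a guanylate-binding protein (0.989). With the length trend removed Ly6c1 (0.998) stayed among the nearest 3 of Myd88, Osmr (0.991) of Tlr2 and Gbp4 (0.988) of Irak2. Rnf114, Cxcl10, Gm12250, Xdh and Casp12 did not stay.

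The members not called with IFN-γ had these nearest genes. Ticam1 was most like Fam189b (0.955), Tmem39a (0.942) and Cd276 (0.939), and Irak4 most like Btbd9 (0.858), Akt1 (0.839) and Axin2 (0.832). Irak1 was most like Stk10 (0.985), Ulk1 (0.977) and Llgl1 (0.958), Traf6 most like Brwd3 (0.981), Zzef1 (0.98) and Mib1 (0.979), and Tlr4 most like Zfp367 (0.955), Hoxc6 (0.946) and Ldlrad3 (0.945). None of the 3 genes nearest to Traf6 or Tlr4 remained among the nearest 3 with the length trend removed, whereas Stk10 (0.937) remained nearest to Irak1 and Fam189b (0.959) to Ticam1.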

How the data were processed

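RNA of 12 libraries, 3 per group, was sequenced after poly(A) selection. Per the study's methods reads were cleaned with SOAPnuke and aligned with HISAT2 and Bowtie2 to GRCm38.p6. Sources used here do not name the counting tool. The authors deposited, for each gene and library, an estimated count of reads (expected counts, unnormalized), an FPKM and a TPM. Deposited FPKM values are scaled to transcript length and library depth, and deposited TPM values to a fixed total per library. Expected counts, 90.6 to 91.6% of them whole, were rounded here. Total counts per library ran from 17824306 to 19093204, with a median of 18153496.

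Counts were fitted with edgeR 4.0.16 (TMM, filterByExpr, quasi-likelihood test, two-sided) in R 4.3.3, with 4 groups in one model over 12 libraries. P-values were adjusted by Benjamini-Hochberg over 11900 genes, with 0.05 as threshold. Standard errors are the log2 change divided by the root of the F statistic. Coordinates and promoters came from RefSeq (GRCm38.p6). Alternatives were DESeq2 1.42.0, DESeq2 size factors, other filters, only the groups compared, a replicate block, limma 3.58.1 on log2(FPKM + 1) and log2(FPKM + 0.1), a lowess length trend (span 0.3) removed from each library, and leaving out each library. Limma on log2(TPM + 1) was chosen after seeing the data. The fits were also run on simulated counts drawn without a gene-length trend. That run therefore does not show how the fits behave under such a trend.

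The members and lists were chosen with earlier results of these data known. Named were all 8 members, every called gene of the wider list, a fixed set of its receptors, adaptors and inhibitors, and for each member the 3 genes with the highest correlation, except that a gene withheld from the text is not reported here. The study calls its replicates biological, while the labels do not name separate cultures, so p-values measure the spread between these libraries.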

Additional observations from a re-analysis of the deposited data

How the results depend on the processing

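The calls of Myd88 and Irak2 with IFN-γ held in both siRNA arms under all 12 alternatives and all 12 fits that left out a library, and that of Tlr2 did so except on log2(TPM + 1) in siR_Ctrl cells (0.73, adjusted p = 0.0999). Of members called between the siRNA arms with IFN-γ, DESeq2, the length trend removed, and that with the replicate block gave 1 (Ticam1) in place of 0. The pathway list gave 3 calls in place of 6 on log2(TPM + 1) with IFN-γ in siR_Ctrl cells. In siR_Nostrill cells it gave 5 calls in place of 8 at a mean of 5 CPM. The called genes Tlr6, Sigirr and Map3k8 lie below that mean and were not tested in that setting. In the same cells the list gave 16 calls with only the groups compared, 15 with the length trend removed and 18 with the replicate block added. Between the arms without IFN-γ it gave 1 and 4 calls with these last settings in place of 0, and with IFN-γ 7 and 7, against 1 with DESeq2 and 1 with log2(FPKM + 1) on all genes. Over all genes, in place of 649, 807, 26 and 51 calls, DESeq2 gave 838, 1330, 257 and 601, only the groups compared 341, 1997, 0 and 0, log2(TPM + 1) 328, 551, 0 and 30, the length trend removed 1324, 2273, 410 and 1539, and that with the block 1438, 2675, 560 and 1898, with 250 for the interaction in place of 0. A mean of 5 CPM gave 508, 705, 25 and 105 of 9868 genes, and no filter 596, 728, 18 and 30 of 14993. On log2(FPKM + 1) the calls were 528, 822, 21 and 98 of 11095, and on all 14997 genes 670, 1015, 47 and 278. The higher to lower split with IFN-γ was 560 to 89 and 623 to 184. With the length trend removed it was 969 to 355 and 1340 to 933. Between the arms with IFN-γ the split was 22 to 29, and 736 to 803 with the length trend removed. On log2(FPKM + 1) it was 67 to 31, and 192 to 86 on all genes. Apart from genes that a filter left out, the cause of these differences was not tested.

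Some uncalled log2 changes reversed, among them the Tlr4 interaction of 0.30. With the length trend removed, without and with the replicate block, Irak1 with IFN-γ became 0.044 and 0.043 in siR_Ctrl and -0.002 in siR_Nostrill cells and 0.050 and 0.049 between the arms without IFN-γ, Tlr4 became -0.24 with IFN-γ in siR_Nostrill cells and 0.36 between the arms without it, and the interaction became -0.14 for Tlr4, 0.032 for Myd88 and -0.046 and -0.044 for Irak1. Between the arms without IFN-γ Tlr4 became 0.001 without a filter, 0.003 at 5 CPM and 0.004 with the block, and at 5 CPM Irak4 with IFN-γ in siR_Ctrl cells became 0.003. On log2(FPKM + 1), log2(FPKM + 0.1) and log2(FPKM + 1) of all genes, Traf6 with IFN-γ in siR_Ctrl cells became -0.040, -0.049 and -0.040, Irak4 between the arms with IFN-γ 0.077, 0.10 and 0.077, and the Irak2 interaction 0.034, 0.040 and 0.034. On log2(TPM + 1), whose all-gene medians lay at -0.145, 0.137, -0.148, 0.122 and 0.278 in the 5 comparisons, Traf6 became -0.12, Irak2 and Irak4 between the arms with IFN-γ 0.06 and 0.15, Tlr2 and Ticam1 without it -0.10 and -0.024, and the interaction 0.20 for Myd88 and 0.25 for Irak2.

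Leaving out each library moved the uncalled members across 0 as follows. With IFN-γ in siR_Ctrl cells Irak1 ran from -0.12 to 0.077, Irak4 from -0.043 to 0.048 and Traf6 from -0.076 to 0.16, and in siR_Nostrill cells Tlr4 ran from -0.038 to 0.11 and Irak4 from -0.057 to 0.17. Between the arms without IFN-γ Irak1 ran from -0.10 to 0.052, Irak2 from -0.086 to 0.011, Tlr2 from -0.024 to 0.185 and Tlr4 from -0.14 to 0.25, and with IFN-γ Irak1 from -0.047 to 0.14 and Traf6 from -0.021 to 0.16. The interaction ran from -0.014 to 0.19 for Irak1, -0.082 to 0.041 for Irak2, -0.057 to 0.17 for Irak4 and -0.099 to 0.11 for Tlr2. Over all genes the calls then ran from 489 to 589 and 491 to 1138 with IFN-γ, and from 0 to 37 and 0 to 72 between the arms, with 491 without siR_Nostrill replicate 2 and 500 without siR_Nostrill + IFN-γ replicate 2.

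Deviations from the group mean correlated between same-numbered libraries at -0.495 to 0.725. The highest value was that of replicate 2 of siR_Ctrl and siR_Ctrl + IFN-γ, whose deviations followed gene length at a rho of -0.759 and -0.766. These correlations therefore cannot show whether the numbers pair the libraries. With the replicate block the calls of the members were 3, 3, 0, 0 and 0 as without it, and over all genes 644, 943, 18, 32 and 0.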
